A study of Arabidopsis thaliana with 75 samples.

Results

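The peaks described here are m6A immunoprecipitation peaks on transcripts of Arabidopsis seedlings that were marked in the mta line and not in Col-0. A gene was selected when a peak summit lay in it in all 3 lists of untreated mta seedlings and in neither of the 2 lists of untreated Col-0 seedlings (replicates 2 and 3), and when its mean mRNA level was at least 10 CPM (counts scaled to the sum of the library) in both untreated groups. The rule held for 179 of 11802 genes at that level. Those genes carried 718 of the 56166 peaks of the untreated mta lists, with 230, 237 and 251 in the 3 libraries. All 26 lists of the series together held 497462 peaks. The genes were thus chosen by the presence of peaks in untreated mta and Col-0 and by the untreated mRNA level, and the values of those groups are given as a description, with no test.

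N6-methyladenosine (m6A) is placed on mRNA by a nuclear writer complex whose catalytic core pairs MTA with MTB, and it is removed by demethylases such as ALKBH10B. Reader proteins with a YTH domain bind the mark, which is known to bear on the stability and translation of transcripts. In plants the mark is concentrated towards the 3′ end of transcripts. The peptide flg22, a stretch of bacterial flagellin, is perceived at the cell surface and starts pattern-triggered immunity, with fast induction of defence genes.

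The seedlings were 14 days old and were either untreated or exposed to 1 µM flg22, and the genotypes were Col-0 (the wild type), mta and 35SALKBH10B, a line with the demethylase gene behind the 35S promoter. The treatment tag gives 4 h for flg22. Titles of untreated m6A and GMUCT samples give the start, while the names of the mRNA count columns give 4 h for untreated seedlings too, so differences with flg22 in m6A and GMUCT can also hold 4 h of time. Leaves were 4 weeks old, from Col-0 or mta, and titles give a time of 00 or 24 without a unit; the titles name Pst and the treatment tag names flg22, so these groups are called leaf 00 and leaf 24. The labels state for the mta line only its name; mta null mutants are embryo-lethal, and a viable line usually keeps some MTA activity. The labels do not say that the replicates came from separate cultures, and a p-value here is set by the spread of the libraries alone, which can be of technical origin.

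Seedling mRNA libraries held about 9442000 to 13223000 counts in gene loci, leaf libraries about 20468000 to 44053000, and GMUCT libraries (reads from the ends of uncapped and cleaved transcripts) about 3107900 to 41466000 reads, while no depth is known for the m6A libraries. MTA had 0 mRNA counts in every library, Col-0 included, so mRNA does not check the label. In the seedling annotation another locus of the same strand, AT4G05815, overlaps MTA. The GMUCT level of MTA was 21.8, 18.3 and 23.8 RPM (reads scaled to the sum of the library) in untreated Col-0 and 9.65, 9.91 and 10 RPM in untreated mta. Summed over 4 green tissue markers, mRNA stood at 8940 to 9770 CPM in untreated Col-0 seedlings and 9080 to 9850 CPM in untreated mta, against 5280 to 6320 and 6100 to 6420 CPM with flg22. Guard cell markers summed to 17.5 to 30.8 CPM in untreated Col-0 and 33.9 to 35.8 CPM in untreated mta, with all 4 detected. Root markers stayed at or below 10.1 CPM with EXPA7 and IRT1 at 0, and seed markers at or below 5.78 CPM with EM1, CRA1 and OLEO1 at 0. The part of these tissues in the results was not tested.

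The genes marked in mta only were of moderate expression, and many stood higher in mta. Their median level was 21.8 CPM in untreated Col-0 and 32.8 CPM in untreated mta, beside 34.4 and 35.3 CPM over all expressed genes. All 3 mta libraries lay above all 3 Col-0 libraries for 95 of the 179 genes, where this held for 26.9% of all expressed genes, and below them for 24 genes, where it held for 31.1%. In Col-0, 76 of the genes (42.46%) stood under 20 CPM, where this held for 24.91% of all expressed genes. The part of the mRNA level in the missing Col-0 peaks was not tested. In whole seedlings and leaves, fewer cells of a type and less RNA per cell cannot be told apart. The CPM minimum passed narrowly for ATGLR1.2 at 10.04 CPM in Col-0, a glutamate receptor gene, FAR1 at 10.18 CPM and ATJ1 at 10.19 CPM. It left out VSP1 at 9.90 CPM, CCOAMT at 9.92 CPM and AT1G10990 at 9.95 CPM, and 156 genes that met the peak condition in all.

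The condition on Col-0 rests on 2 lists. These held 17189 peaks in replicate 2 and 15889 in replicate 3, against 18087, 19256 and 18823 in the untreated mta lists. The part of list size in the absent peaks was not tested. A further 444 expressed genes had a peak in all 3 mta lists and in 1 of the 2 Col-0 lists, with 333 of them absent only from replicate 3 and 111 only from replicate 2. Without Col-0 replicate 2 the rule would have selected 512 genes, and without replicate 3 it would have selected 290. In the other direction, 168 genes had a peak in both Col-0 lists and in no mta list, and 7821 genes had a peak in all 5 lists. In untreated Col-0, 0 peaks overlapped a member peak by position on the strand read. The rule already keeps untreated Col-0 summits out of these genes, so this was largely set by the selection.

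The 179 genes were spread over the chromosomes, with 54 on chromosome 1, 30 on 2, 33 on 3, 30 on 4 and 32 on 5. Of them, 175 are protein coding and 85 carry a symbol other than their locus tag. Their median length was 2103 bases, against 2605 bases over all expressed genes. Of the 179, 102 had 1 peak in each of the 3 lists. The strongest peak of a gene was overlapped by a peak in all 3 mta lists for 150 genes (83.8%). A gene on the opposite strand overlapped 38 of them and covered 50% or more of 12, and the seedling counts do not separate the strands.

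Peaks of the genes marked in mta only were narrower and weaker than the average peak of the same lists. Their median width was 152.5 bases against 206, and their median fold enrichment, which is the peak caller's own value, was 3.77 against 4.13. The median −log10 q was 4.70 against 6.79, and the genes carried 1.34 peaks per list against 1.80. Weaker peaks are not particular to the members, and the width and number of peaks are not read as particular either. Genes marked in Col-0 only had a median width of 131 bases and 1.04 peaks per list in untreated Col-0. Their median −log10 q was 5.26, against 7.39 over all expressed genes in the untreated Col-0 lists. Their median fold enrichment was 4.36, against 4.565 in those lists. Values of single member peaks ran from 1.75 to 10.3 in fold enrichment.

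The strongest peaks were on GSTU10, ACS2 and AT3G15760. GSTU10 encodes a glutathione S-transferase, an enzyme of detoxification, and lies on the minus strand of chromosome 1 at chr1:28023627-28024860 (TAIR10). Its best peak, chr1:28024436-28024581, had its summit at 25.1% of the gene counted from the 5′ end. The fold enrichment of GSTU10 was 9.35, 8.75 and 8.52 in the 3 untreated mta libraries. A gene on the opposite strand covers 98.4% of GSTU10, so its seedling mRNA values cannot be told apart from those of that neighbour. ACS2, an enzyme that makes the direct precursor of ethylene, lies on the plus strand at chr1:175706-178406, and its best peak at chr1:175883-176010 had its summit at 8.37% of the gene. The fold enrichment of ACS2 was 8.64, 8.36 and 10.3. For AT3G15760, at chr3:5337475-5338562, it was 9.5, 8.23 and 10.02, with the summit of the best peak at 62.0% of the gene.

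The other genes with the strongest peaks stood lower. ATJ1, a J-domain co-chaperone, had a fold enrichment of 7.2, 5.29 and 5.15. AT4G30790, listed with the synonym ATG11 for an autophagy scaffold, had 4.82, 5.47 and 5.59, and its best peak lay at chr4:14993721-14993789 at 78.3% of the gene. DJ1C, a DJ-1 homolog, had 5.38, 5.47 and 4.79 at 82.8% of the gene. TBL9, of the trichome birefringence-like family, had 4.82, 4.92 and 5.32. The remaining genes of the strongest 12 (AT1G12320, AT1G51860, AT1G09520, AT1G78410 and AT1G09932) lay between 4.65 and 6.41 in every untreated mta list. ATJ1 stood apart in replicate 1, where it was highest. The strongest 3 genes did not overlap in fold enrichment with AT4G30790, DJ1C or TBL9.

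**Figure D1:**
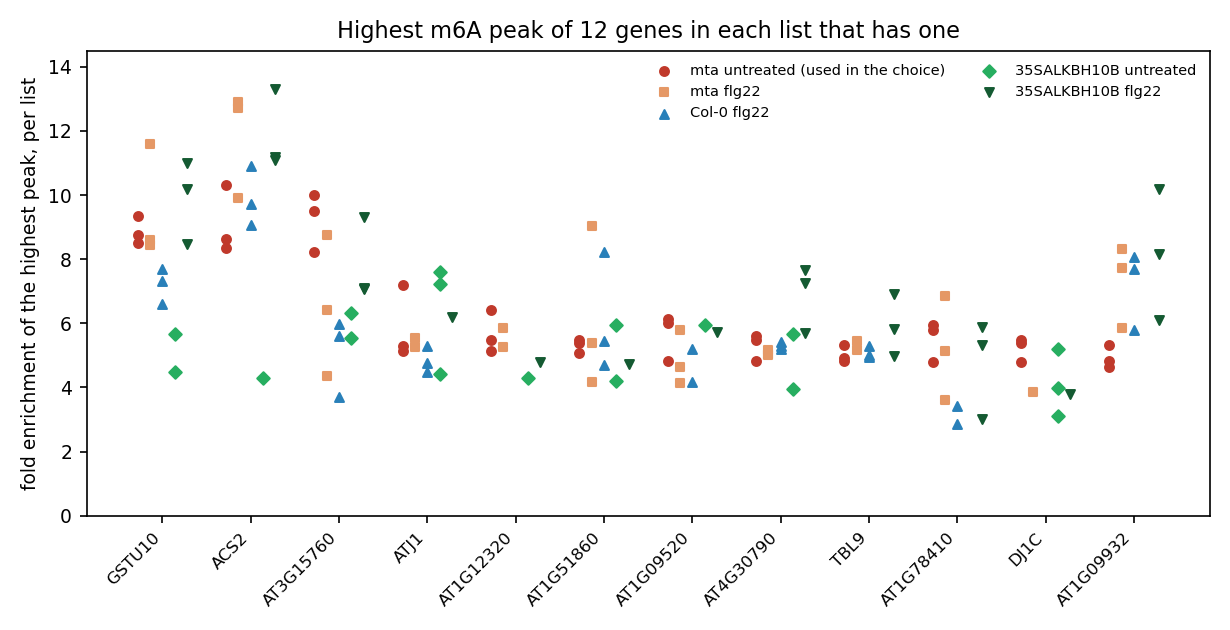
Fold enrichment of the highest peak per list (the peak caller's value, y axis) for the 12 genes with the strongest peaks (x axis), with 1 point for each list that has a peak and the groups of lists by colour and shape. ACS2 and GSTU10 stand above 8 in every untreated mta list and above 6 in every flg22 list, and for ACS2 only 1 untreated 35SALKBH10B list has a peak.

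As a fraction of the gene span, the summits lay further from the 3′ end than those of all expressed genes. In bases they did not, with a median distance to that end of 779.5 against 776, and the member genes were shorter. In the last 20% of the gene span, 27.4% of the 718 summits were found, with 26.7% to 28.3% in the 3 libraries, against 37.4% of all summits in expressed genes, with 36.0% to 38.5%. The ranges over libraries did not overlap. In the last 10% of the span the shares were 9.61% and 18.3%, and in the 10% before it 17.8% and 19.1%. The first 20% held 10.03% of member summits. Peaks of 1 gene share that gene, and the same lists chose the members, so no test is given.

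The lower share near the 3′ end was seen at each level of expression and was absent among the weakest peaks. For genes of 10 to 20 CPM in mta it was 22.9% against 44.5% over all expressed genes of that level, for 20 to 50 CPM 29.5% against 41.7%, and for 50 CPM or more 27.3% against 32.8%. By fold enrichment, peaks under 3 had 33.2% against 33.8%, peaks of 3 to 4 had 25% against 38.4%, and peaks of 4 or more had 25.6% against 38.4%. In lists that the rule did not use, the same genes had 25.6% in flg22 Col-0, where all expressed genes had 41.7%, 18.3% in flg22 mta against 34.2%, and 25.8% in flg22 35SALKBH10B against 44.8%. In untreated 35SALKBH10B the shares were 35.2% and 45.1%. In leaves the shares were 35.1% against 27.6% in Col-0 00, 31.3% against 28.3% in Col-0 24 and 26.0% against 26.5% in mta 00. Exons and untranslated regions were not used here, so positions are fractions of the gene span.

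**Figure D2:**
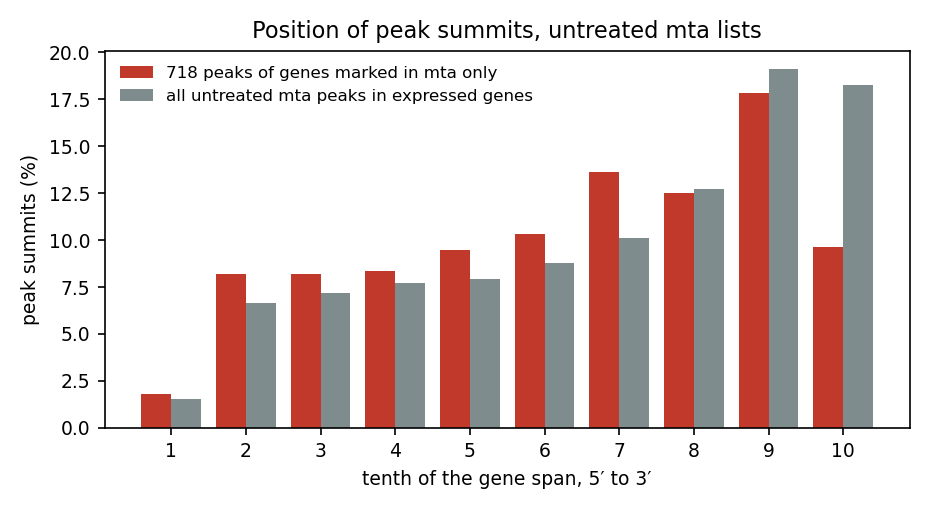
Share of peak summits (y axis, percent) in each 10% of the gene span from the 5′ to the 3′ end (x axis) in the untreated mta lists, for the peaks of genes marked in mta only and for all expressed genes. The last 10% holds 9.61% of the member summits and 18.3% of all summits.

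With flg22, genes marked in mta only had peaks in Col-0 as well as in mta. In the 3 flg22 Col-0 lists, 104, 121 and 86 of the 179 genes had a peak, and 134 (74.9%) had one in at least 1 list, where this held for 81.1% of all expressed genes. A peak in all 3 flg22 Col-0 lists was found for 72 genes (40.2%), while this held for 65.9% of all expressed genes. Among the flg22 mta lists 144, 105 and 124 genes had a peak, 148 (82.7%) had one in at least 1 list, where this held for 78.0% of all expressed genes, and 91 genes (50.8%) had one in all 3, where this held for 58.8% of all expressed genes. Without flg22 mta replicate 2, which had the fewest, 121 genes (67.6%) had a peak in both other lists, against 68.2% of all expressed genes. The shares for all 3 lists were below the background in both genotypes, and the share without replicate 2 was near it.

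The members can be set beside the other expressed genes that had no untreated Col-0 peak. Of 1425 such genes with no untreated mta peak, 3.16% had a peak in all 3 flg22 Col-0 lists. The share was 14.6% for 253 genes with a peak in 1 untreated mta list, 20.0% for 175 genes with 2, and 40.2% for the 179 with 3. The same shares for all 3 flg22 mta lists were 1.75%, 9.49%, 23.4% and 50.8%. The median level in untreated Col-0 was 18.5, 21.3, 20.6 and 21.8 CPM in these 4 sets, and the median in untreated mta was 18.9, 21.3, 24 and 32.8 CPM.

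Under flg22, a peak in all 3 lists of 1 genotype and in none of the other was rare among these and all expressed genes. Differences in only some of the lists are not counted this way. A peak in all 3 flg22 mta lists and in no flg22 Col-0 list was found for 1 gene, AT2G01540, and the share over all expressed genes was 0.297%. Its fold enrichment was 3.07, 2.86 and 2.30 in untreated mta and 5.15, 3.65 and 2.94 in flg22 mta. The reverse was found for 0 of the 179 genes, against 1.35% of all expressed genes. Peaks in all 3 lists of both flg22 groups were found for 63 genes (35.2%), against 55.2% of all expressed genes. The 26 genes (14.53%) with a peak in none of those 6 lists are near the background of 15.9%. Position was compared for the genes with a peak in all 3 lists of a flg22 group, each group taken alone. The best untreated mta peak was overlapped in all 3 lists for 53 of the 72 genes in flg22 Col-0 (73.6%). In flg22 mta this held for 72 of the 91 genes (79.1%).

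**Figure D3:**
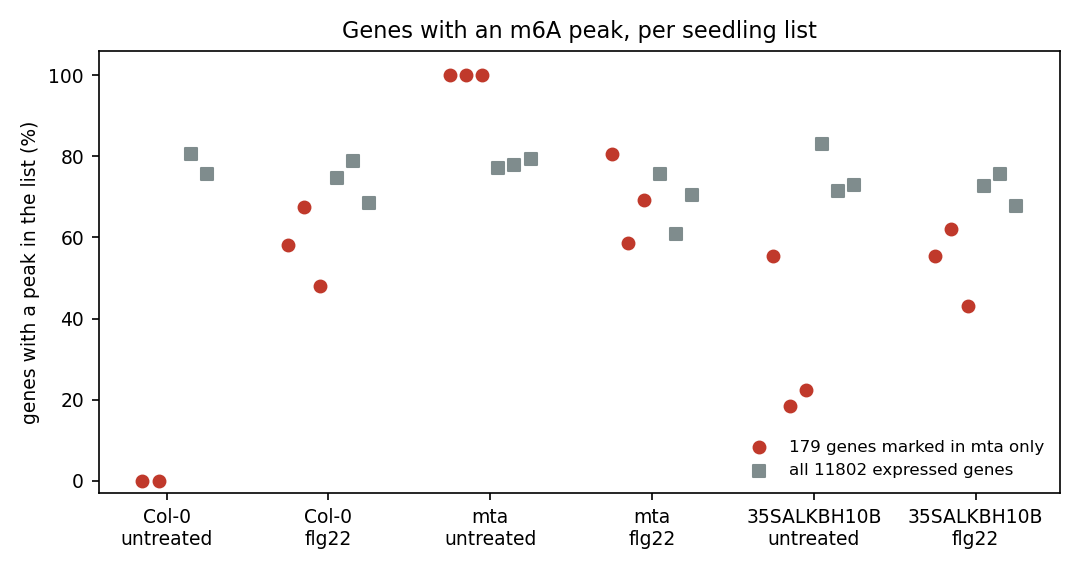
Percent of genes with a peak (y axis) in each seedling m6A list, by genotype and treatment (x axis), with 1 point per list, for the 179 genes marked in mta only (circles) and all 11802 expressed genes (squares). The circles stand at 0% in untreated Col-0 and 100% in untreated mta by the rule, and untreated 35SALKBH10B replicates 2 and 3 lie below the other lists that the rule did not use.

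Among the genes with a peak in all 6 flg22 lists of Col-0 and mta, those with the strongest untreated mta peaks were GSTU10, ACS2, AT3G15760, AT1G51860 and AT4G30790. ACS2 had a fold enrichment of 9.71, 9.07 and 10.9 in flg22 Col-0 and of 9.91, 12.9 and 12.7 in flg22 mta. GSTU10 had 7.33, 6.61 and 7.7 in flg22 Col-0 and 8.45, 8.60 and 11.6 in flg22 mta. The values of ACS2 in flg22 Col-0 overlap with those in untreated mta, and the values of GSTU10 in flg22 Col-0 all lie below them. AT3G15760 had 5.99, 3.69 and 5.61 in flg22 Col-0 and 6.43, 4.35 and 8.77 in flg22 mta, and its flg22 Col-0 values all lie below its untreated mta values. AT4G30790 stayed between 5 and 5.43 in all 6 flg22 lists. AT1G51860 had 8.21, 4.71 and 5.46 in flg22 Col-0 and 9.03, 4.18 and 5.38 in flg22 mta, so its libraries differed from each other more than its groups did. Ranked by the lowest value over the 6 flg22 lists, an order looked at after the values were seen, ACS2 and GSTU10 still lead, followed by AT3G22620, FMO (AT1G12200) and AT1G09932. AT3G22620 had 7.05, 6.35 and 6.9 in flg22 Col-0 and 7.51, 9.3 and 8.65 in flg22 mta. AT1G09932 had 8.08, 5.8 and 7.7 in flg22 Col-0 and 7.74, 5.86 and 8.32 in flg22 mta, all above its values of 4.82, 4.65 and 5.32 in untreated mta. DJ1C had no peak in any flg22 Col-0 list and a peak of 3.87 in 1 flg22 mta list.

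In the 35SALKBH10B line, 2 of the 3 untreated lists held few peaks of these genes, while the flg22 lists held more. Untreated 35SALKBH10B lists held a peak for 99, 33 and 40 of the 179 genes, and for 83.0%, 71.4% and 72.9% of all expressed genes, and 75 genes (41.9%) had none in any of them, against 15.8% of all expressed genes. All 3 lists held a peak for 14 genes (7.82%), where this held for 67.0% of all expressed genes. Without replicate 2, both remaining lists held one for 36 of the 179 genes, against 72.1% of all expressed genes. With flg22 the lists held a peak for 99, 111 and 77 genes. All 3 held one for 66 genes (36.9%), against 64.0% of all expressed genes. Of the genes with a peak in all 3 flg22 35SALKBH10B lists, 25 had none in any untreated list. These are 13.97% of the 179 genes, and the share over all expressed genes was 1.06%. IGMT1, IGMT2 and PBS3 are among these 25. In IGMT2 the fold enrichment was 6.90, 10.5 and 7.06 with flg22, and no untreated list had a peak. In PBS3 it was 8.91, 8.86 and 5.76 with flg22, again with no untreated peak. In IGMT1 it was 7.07, 9.66 and 5.29, with none untreated. CYP82C2 had peaks of 2.65 and 3.74 in untreated lists 1 and 2. Untreated replicate 1 stands apart from replicates 2 and 3 and lies within the range of the flg22 lists.

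Leaf lists reached a looser cut than seedling lists and are not compared with them. Among leaf lists, 34, 36 and 25 of the genes had a peak in Col-0 00, 32, 49 and 34 in Col-0 24, and 36, 41 and 17 in mta 00. A peak in all 3 lists was found for 15 genes in Col-0 00 (8.38%), 19 in Col-0 24 (10.6%) and 10 in mta 00 (5.59%). The shares over all expressed genes were 49.2%, 53.5% and 36.6%.

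In Col-0 seedlings with flg22, more of these genes rose than fell in mRNA. By edgeR's quasi-likelihood test with Benjamini-Hochberg adjustment over 19887 genes, 99 of 179 rose and 32 fell, while 27.9% of all tested genes rose and 30.7% fell. Among all expressed genes, 35.5% rose and 35.0% fell. Their median log2 change was 0.51, against −0.10 over all tested genes, and 73 genes rose at least 2-fold. The rule used the untreated libraries, which are the baseline here, so these counts are not independent of how the genes were selected. Among genes with no untreated Col-0 peak, the share called higher was 28.1%, 38.7%, 43.4% and 55.3% for those with a peak in 0, 1, 2 and 3 untreated mta lists.

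The rise was largest for CYP82C2, PRX52 and AT1G14550. CYP82C2 is a cytochrome P450 of an indole defence pathway, and its mRNA stood at 8.61, 12.9 and 12.9 CPM in untreated Col-0 and at 573.8, 563.0 and 568.3 CPM with flg22. The groups do not overlap, with a log2 change of 5.64 ± 0.10 (SE, 3 libraries against 3, edgeR adjusted p = 4.8e-34). PRX52, a class III peroxidase, stood at 21.2, 19.8 and 19.6 CPM and then at 1021, 816.6 and 979.5 CPM, with a log2 change of 5.54 ± 0.09 (edgeR adjusted p = 1.3e-34). AT1G14550 rose from 10.8, 17.5 and 20.97 CPM to 732.6, 646.7 and 806.5 CPM. The largest falls were those of TLL1, a lipase-like gene, from 50.4, 51.1 and 50.8 CPM to 8.71, 6.57 and 7.86 CPM (log2 change −2.71 ± 0.14, edgeR adjusted p = 5.3e-19), and of sks4, a member of the SKU5-like family, from 38.2, 36.9 and 45.3 CPM to 8.16, 11.5 and 9.49 CPM. CAD9, a cinnamyl alcohol dehydrogenase gene, had the largest falls in mta after TLL1, from 54.0, 70.2 and 63.9 CPM to 21.1, 15.8 and 23.5 CPM (log2 change −1.64 ± 0.15, edgeR adjusted p = 1.1e-11).

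In mta seedlings, 88 of the genes rose with flg22 and 32 fell, against 22% and 20.2% of all tested genes. The member shares, 49.16% and 17.88%, stand beside 29.24% and 27.19% of all expressed genes. The median log2 change was 0.28, and −0.02 over all tested genes, and here too the untreated baseline took part in the selection. CYP82C2 rose from 80.9, 86.2 and 84.4 CPM to 921.0, 952.4 and 961.3 CPM, and AT1G14550 from 58.1, 64.8 and 64.7 CPM to 661.4, 660.4 and 670.4 CPM. In CYP82C2 the untreated mta libraries stand above the untreated Col-0 libraries and below both flg22 groups. TLL1 fell from 39.0, 47.3 and 41.5 CPM to 14.6, 12.6 and 13 CPM (log2 change −1.66 ± 0.13, edgeR adjusted p = 4.1e-13).

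Genes with a peak in more of the flg22 lists had the higher mRNA responses. Of the 72 genes with a peak in all 3 flg22 Col-0 lists, 63 rose in Col-0 and 1 fell, and the median log2 change was 1.75. Of 62 genes with a peak in 1 or 2 of the lists, 29 rose and 8 fell, with a median of 0.23. Of 45 genes with a peak in none, 7 rose and 23 fell, with a median of −0.36. The median flg22 Col-0 levels of the 3 sets were 94.6, 34.5 and 13.4 CPM, and the part of the level in the peak calls was not tested. In mta the sets of 91, 57 and 31 genes had medians of 0.75, 0.07 and −0.45, and 69, 16 and 3 rose. Of all expressed genes, whatever their lists, 35.5% rose in Col-0 and 29.2% in mta. The same split by lists is not given for all expressed genes, so the trend is not read as particular to the members.

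**Figure D4:**
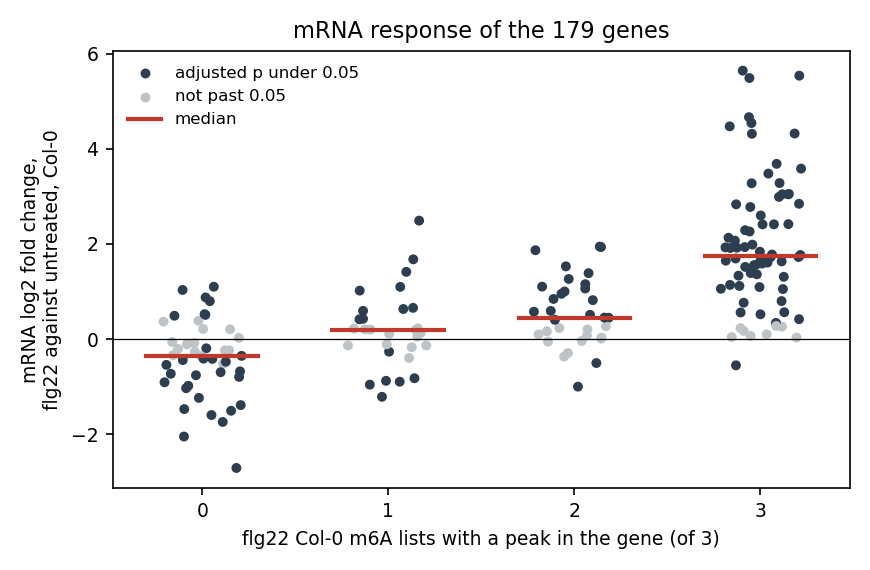
Change of mRNA with flg22 in Col-0 (y axis, log2) against the number of flg22 Col-0 m6A lists with a peak in the gene (x axis) for the 179 genes, with 1 point per gene, dark where the edgeR adjusted p is under 0.05, and a red line at the median. The median is 1.75 with a peak in all 3 lists and −0.36 with a peak in none.

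Between the genotypes under flg22, rises and falls were close in number. In mta against Col-0, 42 genes stood higher and 53 lower, against 18.1% and 19.9% of all tested genes. The member shares, 23.46% and 29.61%, were near those of all expressed genes, 20.85% and 28.94%. Their median log2 difference was −0.02, against 0.03 over all tested genes. SAG13, a senescence-associated gene, stood at 252.5, 255.4 and 256.4 CPM in flg22 mta and at 84.5, 87.4 and 80.9 CPM in flg22 Col-0 (log2 difference 1.60 ± 0.08, edgeR adjusted p = 2e-18). AT5G64110 stood at 138.3, 138.4 and 120.2 CPM against 43.0, 53.5 and 46.8 CPM (log2 difference 1.47 ± 0.10, edgeR adjusted p = 2.5e-14). AT1G09932 was lower in mta, as were IGMT1, IGMT2 and IGMT3. The 3 IGMT genes, methyltransferases of the indole glucosinolate pathway, are close paralogs side by side at chr1:7386762-7396823, so reads can be split between them and each value is uncertain.

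Genes of indole glucosinolate and salicylic acid defence among the members were IGMT1, IGMT2, IGMT3, PBS3 and PR5. IGMT2 stood at 14.0, 18.5 and 16.0 CPM in untreated Col-0, at 375.9, 357.4 and 342.0 CPM with flg22, at 56.2, 50.6 and 55.9 CPM in untreated mta and at 143.9, 142.6 and 124.0 CPM in flg22 mta. It rose in both genotypes and stood lower in mta with flg22 (log2 difference −1.39 ± 0.08, edgeR adjusted p = 8.8e-16). IGMT1 stood at 13.6, 13 and 14.3 CPM in untreated Col-0 and at 158.0, 148.6 and 149.7 CPM with flg22. In mta it rose from 40.5, 42.6 and 38.3 CPM to 85.0, 84.9 and 76.2 CPM. IGMT3, the neighbour between them, rose from 17.59, 18.22 and 22.33 CPM to 140.2, 128.4 and 147.3 CPM in Col-0. PBS3, an enzyme of salicylic acid synthesis at chr5:4267456-4271064, stood at 21.9, 19.1 and 19.1 CPM in untreated Col-0, 67.1, 86.8 and 74.8 CPM with flg22, 62.3, 67.3 and 60.0 CPM in untreated mta and 112.6, 110.8 and 120.0 CPM in flg22 mta. PR5, a pathogenesis-related thaumatin-like gene, stood at 12.03, 10.7 and 13.9 CPM in untreated Col-0 and 16.1, 12.7 and 13.1 CPM with flg22, and its change did not pass the test (log2 change 0.20, edgeR adjusted p = 0.29). PR5 was higher in flg22 mta than in flg22 Col-0 (log2 difference 0.78, edgeR adjusted p = 0.00013).

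Of the 19 genes of the indole defence list, 18 were tested in seedlings, and in Col-0 17 of these rose and 1 fell under flg22, with the same counts in mta. IGMT1 and IGMT2 are 2 of its 16 expressed genes. Of 17 genes of the salicylic acid list, 10 rose and 2 fell in Col-0, and 12 rose in mta; PBS3 and PR5 are 2 of its 14 expressed genes. Of 20 tested genes of the m6A machinery, 3 rose and 5 fell in Col-0, and 2 rose and 4 fell in mta. None of the 16 expressed genes of that list is a member, and 14 of them were marked in both genotypes. The lists for pattern-triggered immunity, photosynthesis and chaperones, with 25, 28 and 16 expressed genes, also hold 0 members. With 179 members among 11802 expressed genes, few or none are expected in lists this short. Nothing is therefore read from lists with 0 members. The lists are not complete, and the chaperone list does not hold the member ATJ1, a J-domain co-chaperone.

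The flg22 response differed between the genotypes for 83 of the 179 genes, with 72 smaller or more negative in mta and 11 the reverse, against 12.2% and 6.91% of all tested genes. The rule used the untreated contrast that enters this difference, so nothing is read from these counts. PRX52 rose by a log2 change of 2.69 in mta, from 182.1, 175.5 and 204.5 CPM to 1204, 1204 and 1227 CPM. ACS2 rose from 20.9, 17.5 and 19.8 CPM to 240.7, 238.9 and 218.0 CPM in Col-0, and from 90.8, 88.0 and 91.8 CPM to 173.2, 186.7 and 171.7 CPM in mta. The flg22 Col-0 values stand above the flg22 mta values for ACS2 (log2 difference −0.39, edgeR adjusted p = 9.4e-05) and below them for PRX52.

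**Figure D5:**
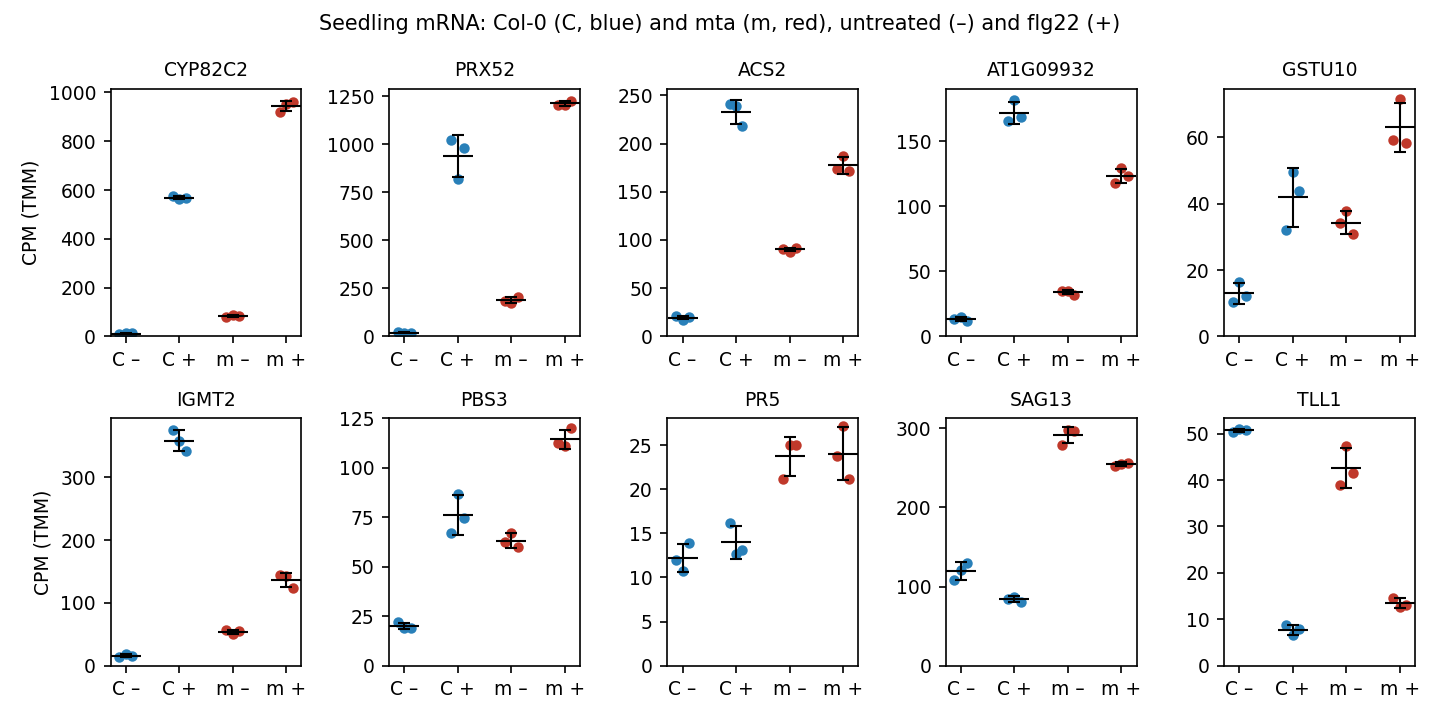
mRNA level (y axis, CPM scaled by TMM, a linear axis from 0 that differs between panels) of 10 genes in each seedling library, by genotype (C for Col-0, m for mta) and treatment (minus for untreated, plus for flg22); points are libraries, and lines and bars are the mean ± SD of 3. CYP82C2 and PRX52 are highest in flg22 mta, ACS2, AT1G09932 and IGMT2 are highest in flg22 Col-0, and TLL1 is lower with flg22 in both genotypes.

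Of the 179 genes, 171 passed the filter on low counts in leaves. At 00, mta stood higher than Col-0 for 66 of them and lower for 9, by edgeR, while 15.5% of all tested genes were higher and 13.3% lower. The member shares, 38.6% and 5.26%, stand beside 14.45% and 17.45% of the expressed genes tested. The median log2 difference was 0.40, against 0.02 over all tested genes, and 38 were higher at least 2-fold. Leaf libraries took no part in choosing the genes. The 4 green tissue markers summed to 29600 to 39400 CPM in Col-0 00 and 42900 to 55500 CPM in mta 00, and the 4 guard cell markers to 46.2 to 55.6 CPM and 61.8 to 79.9 CPM, without overlap, while all 5 root markers were at 0. Their part in the leaf result was not tested. Of genes with no untreated Col-0 seedling peak, 13.8%, 15.2%, 28.5% and 38.6% were higher in mta leaves for 0, 1, 2 and 3 untreated mta seedling lists. Leaving out Col-0 00 replicate 2 lowered the count of called genes from 75 to 49, with 44 higher and 5 lower. CYP76C2, a cytochrome P450, stood at 19.8, 0.155 and 4.71 CPM in mta 00 and at 0, 0.0303 and 0.0795 CPM in Col-0 00 (edgeR adjusted p = 0.0041), and GLR2.5, a glutamate receptor-like gene, at 1.27, 0.0775 and 0.604 CPM against 0 in every Col-0 library (edgeR adjusted p = 0.0089). Replicate 1 of mta 00 was the highest of the mta libraries for both genes and replicate 2 the lowest. AT5G19120 was lower in mta, at 145.5, 119.4 and 139.6 CPM against 248.7, 268.0 and 254.1 CPM (log2 difference −0.93 ± 0.17, edgeR adjusted p = 0.0028). AT2G44500 was lower too, at 25.5, 46.5 and 44.99 CPM against 49.2, 86.8 and 73.7 CPM (edgeR adjusted p = 0.023), a call that 3 of 16 alternative settings did not keep.

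From 00 to 24 in Col-0 leaves, 84 of the genes rose and 44 fell, against 35.6% and 32.7% of all tested genes. The member shares, 49.12% and 25.73%, stand beside 39.76% and 33.14% of the expressed genes tested. The median log2 change was 0.53, and 0.02 over all tested genes. Green tissue markers summed to 12600 to 22100 CPM at 24, below their range at 00, and guard cell markers to 74.1 to 108 CPM, above theirs, and their part was not tested here either. NATA1, an acetyltransferase, stood at 0.0459, 0.0606 and 0.106 CPM at 00 and at 3117, 2949 and 3470 CPM at 24 (edgeR adjusted p = 1.2e-06). MSRB7, a methionine sulfoxide reductase, stood at 0 in all 3 libraries at 00 and at 47.5, 19.6 and 27.8 CPM at 24 (edgeR adjusted p = 2.6e-06). AT4G21870 fell from 4.13, 8.73 and 7.71 CPM to 0.568, 0.511 and 0.297 CPM, and AT5G45670 fell from 1.61, 3.39 and 5.99 CPM to 0, 0.108 and 0 CPM (edgeR adjusted p = 0.00075). At 00 these levels are near or at 0 for NATA1 and MSRB7 in every library and well above it at 24.

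Uncapped transcripts, measured by GMUCT, were higher with flg22 for 61 of the 177 genes that passed the RPM filter in Col-0 and lower for 39, by limma on log2(RPM + 1), against 10.5% and 40.1% of all 19277 tested genes. The median log2 change was 0.07, against −0.48 over all tested genes, and edgeR on recovered reads called 87 higher and 18 lower with a median of 0.63, against −0.11. RPM are shares of a library, so genes that rise strongly lower the others. CYP82C2 stood at 14.8, 2.90 and 14.2 RPM untreated and at 326, 427 and 453 RPM with flg22 (log2 change 5.35 ± 0.58, limma adjusted p = 1.1e-06), and AT1G14550 at 13.2, 3.54 and 12.9 RPM and then at 197, 319 and 306 RPM (limma adjusted p = 1.6e-06). The lower group in both genes is the untreated one, with replicate 2 the lowest. sks4 fell from 24.5, 22.8 and 27.2 RPM to 2.31, 5.52 and 6.002 RPM (log2 change −2.28 ± 0.32, limma adjusted p = 1.6e-05).

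In mta the GMUCT levels of 45 of the genes rose and those of 26 fell with flg22, against 6.43% and 16.0% of all tested genes. The count of called genes was 71, and it was 42 without flg22 mta replicate 2, 44 without untreated mta replicate 2 and 45 without flg22 mta replicate 1. PTAC18, a plastid protein, fell from 100.1, 95.2 and 118.9 RPM to 28.2, 27.5 and 28.2 RPM (log2 change −1.86 ± 0.21, limma adjusted p = 2e-05), and AT1G78410 fell from 44.4, 55.3 and 67.2 RPM to 17.9, 15.4 and 25.4 RPM. CYP82C2 stood at 102, 94.9 and 65.9 RPM untreated and at 918, 866 and 908 RPM with flg22.

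Under flg22, 13 genes stood higher in mta than in Col-0 and 0 lower in GMUCT, against 2.41% and 0.477% of all tested genes, by limma. At an unadjusted p under 0.05 the counts were 38 and 7, and edgeR on recovered reads called 8 higher and 3 lower. The count of called genes ranged from 3 to 34 when a library was left out: it was 3 without flg22 Col-0 replicate 1, flg22 mta replicate 2 or flg22 mta replicate 3, 7 without flg22 Col-0 replicate 2, 8 without flg22 mta replicate 1, 24 without untreated Col-0 replicate 2, 20 without flg22 35SALKBH10B replicate 2 and 34 without flg22 35SALKBH10B replicate 3. AT5G64110 stood at 58.6, 59.5 and 48.4 RPM against 6.03, 16.4 and 14.0 RPM (log2 difference 2.2 ± 0.40, limma adjusted p = 0.0037), and SAG13 at 38.6, 29.03 and 32.01 RPM against 7.74, 7.96 and 10.3 RPM (log2 difference 1.82 ± 0.23, limma adjusted p = 0.00011). Both genes are also higher in mta in the seedling mRNA under flg22.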

How the data were processed

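m6A immunoprecipitation, mRNA-seq and GMUCT, a sequencing assay of uncapped and cleaved RNA, were measured in 75 samples of 25 groups. The member genes and the gene lists were chosen with earlier results of these data known.

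The authors' deposited m6A files are MACS2 narrow peaks for each library and strand, with a fold enrichment as a ratio and −log10 p and q values, per the file layout; seedling lists reach down to q 0.01. Other steps before peak calling are not given in the sources used here, apart from STAR and TAIR10, named without versions per the submitters' processing notes. For mRNA, the deposited files hold whole-number counts per feature, made with featureCounts 2.0.1 per the file headers of the seedling table. Gene loci took 65.3% to 69.5% of seedling counts, and most others lay in noncoding features that run against annotated genes, so reads of the 2 strands were not kept apart. In leaf files 8.12% to 17.8% of counts lay in closing rows that name no gene and were left out. GMUCT was deposited as RPM, and 100% of values were whole reads within 0.01 once scaled back. Another 12 count columns of the seedling table, whose names map to no group, were not used, and mRNA of 35SALKBH10B and m6A of mta leaves at 24 are not analysed here.

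A peak was assigned to the gene on the strand opposite to that of its file that holds its summit, which is the strand the rule names. CPM beside the selection are scaled by the library sum, and CPM of named genes by TMM factors. In R 4.3.3, edgeR 4.0.16 fitted the 12 seedling and the 12 leaf libraries separately by quasi-likelihood with TMM and filterByExpr, and limma 3.58.1 fitted log2(RPM + 1) of genes that reached an RPM of 1 in 3 or more of the 18 GMUCT libraries. This scale understates changes of low genes. P-values were adjusted by Benjamini-Hochberg over all genes of a fit, with a threshold of 0.05. On the recovered GMUCT reads edgeR called 7800 genes for flg22 in Col-0, 4561 for flg22 in mta and 627 for mta against Col-0 under flg22. The fits were tested on simulated data. Tests were two-sided.

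Named genes were the 12 with the highest of the lowest fold enrichment over the 3 untreated mta lists, the 2 largest rises and falls of each tested comparison among called genes whose replicates do not overlap, the first 5 in that order among genes marked in all flg22 Col-0 and mta lists, any marked only in flg22 mta, the members of the gene lists, and the 3 nearest the CPM minimum on each side. Replicates of a group differed beyond counting error, with a chi-square per degree of freedom of 2.67 or more, so none was a duplicate. Same-numbered samples did not deviate together in every pair of any comparison (correlations −0.185 to 0.345), so the fits are unpaired. Alternatives were other scalings, filters, pseudocounts and CPM minimums, DESeq2 1.42.0, stricter peaks, other ways to assign peaks, a replicate block and leaving out each library. The edgeR fit on GMUCT reads and leaving out each list in turn were added after seeing the data. RefSeq (TAIR10.1) gave the symbols of all 179 genes; gene coordinates are those of the seedling count table.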

Additional observations from a re-analysis of the deposited data

Results flagged for a closer look

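The flg22 response of seedling mRNA differed between mta and Col-0 for 83 of the 179 genes in the interaction term of edgeR's fit over 12 libraries. This term holds the untreated mta and Col-0 libraries that took part in selecting the genes, so it is no independent test, and the values are a description without p-values. The genes below are the extremes at each end under the naming rule, and other named genes such as ACS2, CYP82C2, IGMT1 and IGMT3 also passed.

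The response of IGMT2, a methyltransferase of indole glucosinolates, was −3.14 on the log2 scale in mta relative to Col-0. For PRX52, a class III peroxidase, the difference was −2.85, and its flg22 level was higher in mta than in Col-0. For TLL1 it was 1.05, with a fall in both genotypes that was smaller in mta. NRPC2, a subunit of RNA polymerase III, stood at 31.0, 22.2 and 20.3 CPM untreated and 6.35, 13.7 and 6.77 CPM with flg22 in Col-0, and at 38.8, 29.3 and 31.6 CPM and 22.2, 27.6 and 23.2 CPM in mta. The difference of the NRPC2 responses was 1.02.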

How the results depend on the processing

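The number of genes marked in mta only depends most on the untreated lists and the level asked for. It was 179, and 100 with a CPM of at least 20, 259 with 5, 168 with TMM scaling, 179 when 50% of a peak had to lie in the gene, 197 with a −log10 q of 3 or more (116 shared), 218 with 5 (39 shared) and 210 with absence by position, and it ranged from 210 to 512 without each untreated library. Asking for a 2-fold change lowered the called members to 84 for flg22 in Col-0, 35 for flg22 in mta, 12 for mta against Col-0 under flg22, 37 for the difference of responses and 38 for mta against Col-0 in leaves. In GMUCT it lowered them to 43 for flg22 in mta and 8 for mta against Col-0 under flg22. Leaving out each library moved the count from 49 to 76 for leaf mta against Col-0, from 42 to 94 for GMUCT with flg22 in mta and from 3 to 34 for GMUCT mta against Col-0 under flg22. Leaving out each list raised the genes with a peak in all remaining lists to 15 to 36 in untreated 35SALKBH10B, 16 to 25 in leaf Col-0 00, 20 to 29 in leaf Col-0 24 and 11 to 25 in leaf mta 00. With a −log10 q of 3 or more, the leaf counts were 6, 3 and 2. The cause of these moves was not tested. With a replicate block, 132 genes were called for flg22 in Col-0 (131 without) and 83 for leaf mta against Col-0 (75 without), and the counts of all 9 comparisons stayed within 1.5 times. For GMUCT with flg22 in Col-0 the share of higher among called members was 61.0% with limma and 82.9% with edgeR on reads, and for flg22 in mta 63.4% and 76.8%. Of 603 alternatives for 34 results of named genes, 599 kept direction and call, 4 lost the call and 0 reversed. No depth is known for the m6A libraries, so a missing peak cannot be told apart from a shallow library.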
